A study of Rattus norvegicus with 62 samples.

Results

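The HCN and KCNQ genes encode ion channels that set how readily a neuron fires. The members described here are Hcn2, Hcn3, Hcn4, Kcnq3 and Kcnq5, chosen by name, and all array probe sets annotated to exactly 1 of these symbols were taken. That gave 8 probe sets of 5 genes, out of 20826 single-symbol probe sets of 14217 genes. RNA was measured in 3 brain regions, frontal cortex, hippocampus and brainstem. The animals, male Wistar rats, were dosed by gastric tube 2 times a day for 90 days with phenytoin at 75 mg/kg, levetiracetam at 150 mg/kg or a control solution, which gives 9 groups. Each group had 7 arrays, except the control frontal cortex with 6, and 62 arrays were used in all. The array numbered 4 of that group was not analysed here.

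HCN channels open when a neuron becomes more negative than rest, bind cyclic AMP directly, and carry an inward current that steadies the resting potential and helps to pace rhythmic firing. KCNQ channels open slowly near the firing threshold and carry the M-current, a potassium current that limits repeated firing and is shut down when muscarinic receptors deplete membrane phosphoinositides. Hcn2 is a major brain HCN subunit, Hcn3 and Hcn4 are further pore-forming HCN subunits, and Kcnq3 and Kcnq5 are M-current subunits. Phenytoin is an antiseizure drug that blocks voltage-gated sodium channels, and levetiracetam is one that binds the synaptic vesicle protein SV2A.

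RefSeq promoter sequence was matched for 2 of the 5 members, Hcn2 and Kcnq5, which are also the members with the largest differences between regions below. The 250 bases before each start site are given 5′ to 3′ on the gene's strand in the GRCr8 build. Capitals mark matches, on either strand, to GGGCGG (a GC box) or TGACG (the core of a cyclic AMP response element). The first lies at chr7:10639458-10639707 and the second at chr9:31891282-31891531, both on the minus strand.
Hcn2: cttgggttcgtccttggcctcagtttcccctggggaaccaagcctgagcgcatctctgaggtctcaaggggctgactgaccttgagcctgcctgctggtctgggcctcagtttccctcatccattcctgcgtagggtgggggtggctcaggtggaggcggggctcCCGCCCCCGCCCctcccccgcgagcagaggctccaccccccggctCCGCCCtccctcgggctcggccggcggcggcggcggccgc
Kcnq5: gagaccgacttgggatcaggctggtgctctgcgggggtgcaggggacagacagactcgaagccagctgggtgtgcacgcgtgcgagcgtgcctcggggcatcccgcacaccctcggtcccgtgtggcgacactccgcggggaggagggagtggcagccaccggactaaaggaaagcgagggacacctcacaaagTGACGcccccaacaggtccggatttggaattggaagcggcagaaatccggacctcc

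The Hcn2 window held 3 GC boxes and 0 matches to TGACG, and the Kcnq5 window held 0 GC boxes and 1 match to TGACG. Over the same 250 bases of 33469 rat promoters, 30.5% held a GC box and 18.2% held TGACG, counting both strands. No match printed here overlapped another. The Hcn2 window was 71.6% G or C and the Kcnq5 window 65.2%, against a median of 51.2% over all windows. These matches describe the letters and say nothing of binding.

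The deposited values are linear array intensities, which were transformed as log2(value + 16) and quantile normalized. Fold changes are therefore on that scale and understate the change of dim probe sets. Levels are comparable between samples for 1 probe set, and not between probe sets. The p-values were adjusted over the 18625 probe sets tested in each comparison (limma, two-sided, Benjamini-Hochberg), and a difference was called where the adjusted p was under 0.05. Because the tissue is bulk RNA, fewer cells of a type and less RNA per cell cannot be told apart.

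Of the region markers measured in control rats, 5 of 5 for the brainstem, 4 of 6 for the hippocampus and 4 of 5 for the cortex were highest in their own region. The exceptions were Calb1 and Tdo2, highest in the cortex, and Neurod6, at 10.85 in the hippocampus against 9.43 in the cortex, while Lamp5 was as high in the brainstem (11.13) as in the cortex (11.17). In control rats Hoxa5, a hindbrain patterning gene, averaged a log2 intensity of 9.05 in the brainstem, 5.06 in the hippocampus and 4.41 in the cortex. Prox1, a dentate granule cell factor, averaged 7.86, 9.12 and 6.30 in the same order, and Mef2c, abundant in cortical neurons, 7.65, 9.59 and 11.64. The 10 neuronal markers measured averaged 10.56, 10.47 and 10.62 in the same order, but single markers differed both ways: Nefm was 12.46, 10.48 and 10.59, and Syt1 was 7.41, 9.54 and 9.56. That of the 6 oligodendrocyte markers measured was highest in the brainstem, at 11.54 against 10.19 and 9.86. The 5 cerebellar markers measured averaged between 5.80 and 9.31 on single brainstem arrays and between 5.58 and 6.59 on the hippocampal and cortical arrays. The 5 striatal markers measured averaged 6.29 to 9.96 on single phenytoin hippocampus arrays, against 6.28 to 6.68 on the control hippocampus arrays. Array weights were lowest on phenytoin brainstem array 1, phenytoin hippocampus array 7, control hippocampus array 1 and levetiracetam cortex array 3, and where leaving out these 4 changed a call this is given below. The frontal cortex samples carry titles of another style, and region and any difference between those sets of arrays cannot be told apart.

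Hcn2 was the HCN gene with a clear regional pattern, and its RNA was highest in the brainstem. On the 7 control brainstem arrays its log2 intensity had a lowest value of 7.87, a median of 8.35 and a highest of 8.68. The control hippocampus ran from 6.78 over a median of 7.19 to 7.60, and the control cortex from 7.05 over 7.26 to 7.44. Every brainstem array thus lay above every forebrain array of control rats. The brainstem exceeded the hippocampus by 1.10 (SE 0.11, 2.14-fold, limma adjusted p = 3.86e-13) and the cortex by 1.02 (SE 0.12, 2.03-fold, adjusted p = 1.61e-11). Hippocampus and cortex differed by -0.07 (95% interval -0.31 to 0.16, adjusted p = 0.627).

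The Hcn2 pattern held in both drug groups. In phenytoin rats the brainstem exceeded the hippocampus by 0.96 (adjusted p = 3.88e-11) and the cortex by 0.81 (adjusted p = 5.2e-09). In levetiracetam rats the differences were 1.04 (adjusted p = 2.36e-12) and 0.99 (adjusted p = 1.21e-11). In each of these 4 comparisons all 7 brainstem arrays were above all forebrain arrays. Ordered by mean, the 3 brainstem groups came first at 8.29, 8.27 and 8.24, and the 6 forebrain groups followed between 7.46 and 7.19. The step between brainstem and forebrain, 0.78, was the only gap between neighbours that exceeded the larger SD of the pair. On the deposited scale the group means of the brainstem were 305, 296 and 286, and those of the forebrain ran from 130 to 159. The oligodendrocyte markers were also higher in the brainstem, as given above, and their part in the Hcn2 difference was not tested.

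Kcnq5 showed the opposite order and a larger difference on the brightest of its 3 probe sets. Its log2 intensity in the control brainstem ran from 7.53 over a median of 7.64 to 7.85. The control hippocampus ran from 9.66 over 9.81 to 10.20, and the control cortex from 8.91 over 9.41 to 9.76. No control brainstem array reached the lowest forebrain array. The brainstem was lower than the hippocampus, with a difference of -2.19 (SE 0.12, 4.56-fold, adjusted p = 9.19e-24), and lower than the cortex, with a difference of -1.67 (SE 0.13, 3.19-fold, adjusted p = 8.93e-18). Deposited intensities averaged 192 ± 17.1 (SD, n = 7) for the brainstem. The hippocampal mean was 901 ± 146 (SD, n = 7) and the cortical mean 668 ± 141 (SD, n = 6). Of the probe sets tested, 98.4% had a smaller difference between control brainstem and hippocampus.

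In phenytoin rats the Kcnq5 brainstem differences were -2.12 against the hippocampus (adjusted p = 4.8e-23) and -2.03 against the cortex (adjusted p = 2.76e-22). In levetiracetam rats they were -2.13 (adjusted p = 3.35e-23) and -1.52 (adjusted p = 7.54e-17). The brainstem arrays lay below all forebrain arrays in these 4 comparisons.

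Between the forebrain regions, Kcnq5 was higher in the hippocampus than in the cortex of control rats by 0.52 (SE 0.13, 1.43-fold, adjusted p = 0.000736) and of levetiracetam rats by 0.61 (SE 0.12, adjusted p = 3.18e-05). In phenytoin rats the difference was 0.10 (95% interval -0.15 to 0.34, adjusted p = 0.559). Ordered by mean, the phenytoin cortex, at 9.80, sat directly after the 3 hippocampal groups, at 9.90, 9.86 and 9.85, from which it differed by less than 1 SD. The control cortex, at 9.34, and the levetiracetam cortex, at 9.24, followed, and then the 3 brainstem groups between 7.77 and 7.67.

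Kcnq3, on the brighter of its 2 probe sets, was also lower in the brainstem, with a smaller difference and a wider spread. In control rats its log2 intensity ran from 5.31 over a median of 5.71 to 6.16 in the brainstem, from 5.84 over 6.41 to 7.03 in the hippocampus and from 6.03 over 6.40 to 7.02 in the cortex. The brainstem and forebrain ranges overlapped, although all 7 brainstem arrays were below both forebrain medians. The brainstem differed from the hippocampus by -0.77 (SE 0.20, 1.71-fold, adjusted p = 0.000539) and from the cortex by -0.71 (SE 0.20, 1.64-fold, adjusted p = 0.00208). The corresponding differences were -0.77 (adjusted p = 0.000561) and -0.73 (adjusted p = 0.000991) in phenytoin rats. They were -0.81 (adjusted p = 0.000309) and -0.54 (adjusted p = 0.0134) in levetiracetam rats. Hippocampus and cortex differed by 0.06, 0.04 and 0.27 in control, phenytoin and levetiracetam rats, and none of these passed (adjusted p of 0.818, 0.878 and 0.242).

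The levetiracetam brainstem against cortex call for Kcnq3 was lost on the values as deposited, without quantile normalization (-0.31, adjusted p = 0.20), and held in the other 8 of 9 alternative settings. It was also lost without brainstem array 3 (adjusted p = 0.0567), cortex array 1 (0.0602) or cortex array 4 (0.0799). The difference between hippocampus and cortex in the same rats passed only without cortex array 4 (0.44, adjusted p = 0.0479).

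Hcn3 was dim in every region, with median deposited intensities of 34.9 in the brainstem, 30.0 in the hippocampus and 33.8 in the cortex. In control rats it ran from 4.64 over a median of 5.42 to 5.66 in the hippocampus and from 5.53 over 5.74 to 5.96 in the cortex, so the ranges overlapped. The hippocampus was lower than the cortex in control rats by -0.37 (SE 0.16, adjusted p = 0.046) and in phenytoin rats by -0.45 (SE 0.15, adjusted p = 0.0109). In levetiracetam rats the difference was -0.14 (adjusted p = 0.447). The brainstem exceeded the hippocampus by 0.45 in phenytoin rats (adjusted p = 0.00785), while in control and levetiracetam rats the difference was 0.25 (adjusted p = 0.149) and 0.19 (adjusted p = 0.291). No gap between neighbours in the order of the 9 Hcn3 means exceeded the larger SD of the pair. In the hippocampus the Hcn3 mean lay at percentile 38.2 of all probe sets, below the filter that left dim probe sets out of testing. It lay at 44.7 in the brainstem and 44.8 in the cortex, and passed the filter there. Hcn3 was tested between regions because it passed in the fit of all 9 groups. Each Hcn3 call therefore set a hippocampus group below the filter against a brighter region, and is to be read with that limit.

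The control hippocampus against cortex call for Hcn3 held in 5 of 8 alternative settings and in 5 of 13 omissions of a single array. It was lost without hippocampus array 1 (adjusted p = 0.0546), 5 (0.0616), 6 (0.0617) or 7 (0.188), and without cortex array 1 (0.0569), 2 (0.0984), 3 (0.0926) or 6 (0.0663). Both phenytoin calls held in 14 of 14 such omissions and in 7 of 8 settings. The brainstem against hippocampus difference was 0.26 (adjusted p = 0.128) when the 4 arrays of lowest weight were left out, a setting chosen after seeing the data, and the hippocampus against cortex difference was -0.38 (adjusted p = 0.0732) with the Gapdh ratio as a covariate.

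**Figure D1:**
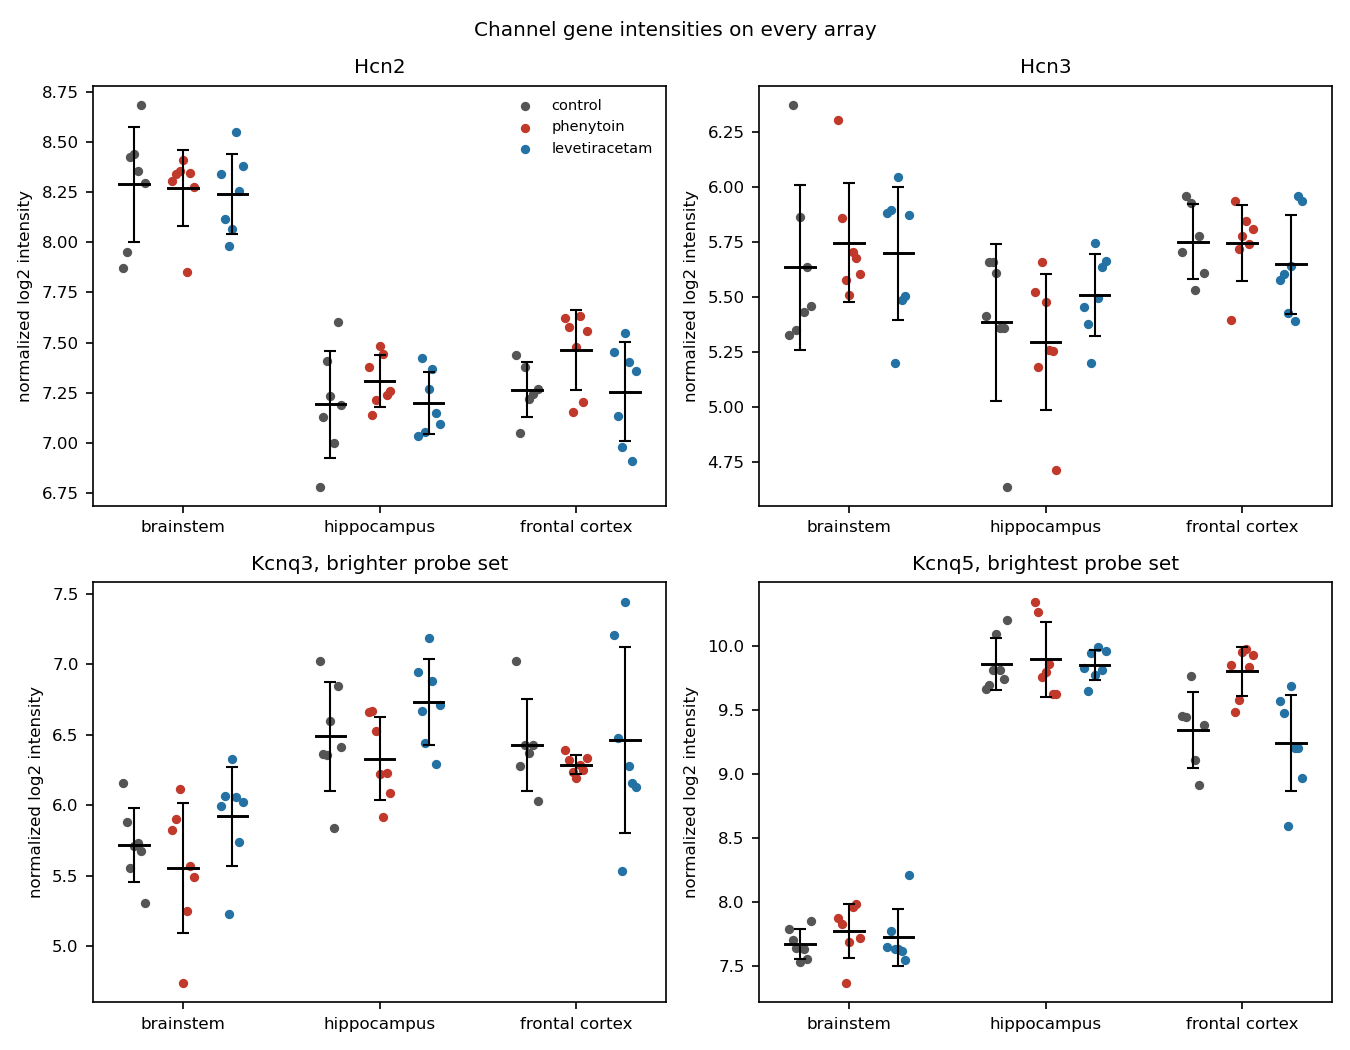
Normalized log2 intensity of Hcn2, Hcn3, the brighter Kcnq3 probe set and the brightest Kcnq5 probe set on each of 62 arrays, by region and treatment; points are arrays, the horizontal line is the group mean and the bar 1 SD. Hcn2 is highest and Kcnq5 lowest in the brainstem, with no overlap between brainstem and forebrain arrays of the same treatment, and the phenytoin cortex group of Kcnq5 lies at 9.80 against 9.34 in controls.

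In control rats 3 of the 4 member probe sets tested differed between brainstem and hippocampus, where 56.4% of all probe sets tested were called. The count was 3 of 4 against the cortex (58.9% of all) and 2 of 4 between hippocampus and cortex (46.1%). In phenytoin rats the counts were 4 (55.1%), 3 (58%) and 1 (43.3%). In levetiracetam rats they were 3 (54.7%), 3 (62.7%) and 1 (53.1%). Regional differences were common on these arrays, and with 4 probe sets the counts are not a result about the members. By size, 90.6% of probe sets had a smaller difference between control brainstem and hippocampus than Hcn2, 82.4% than Kcnq3 and 41.1% than Hcn3.

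**Figure D2:**
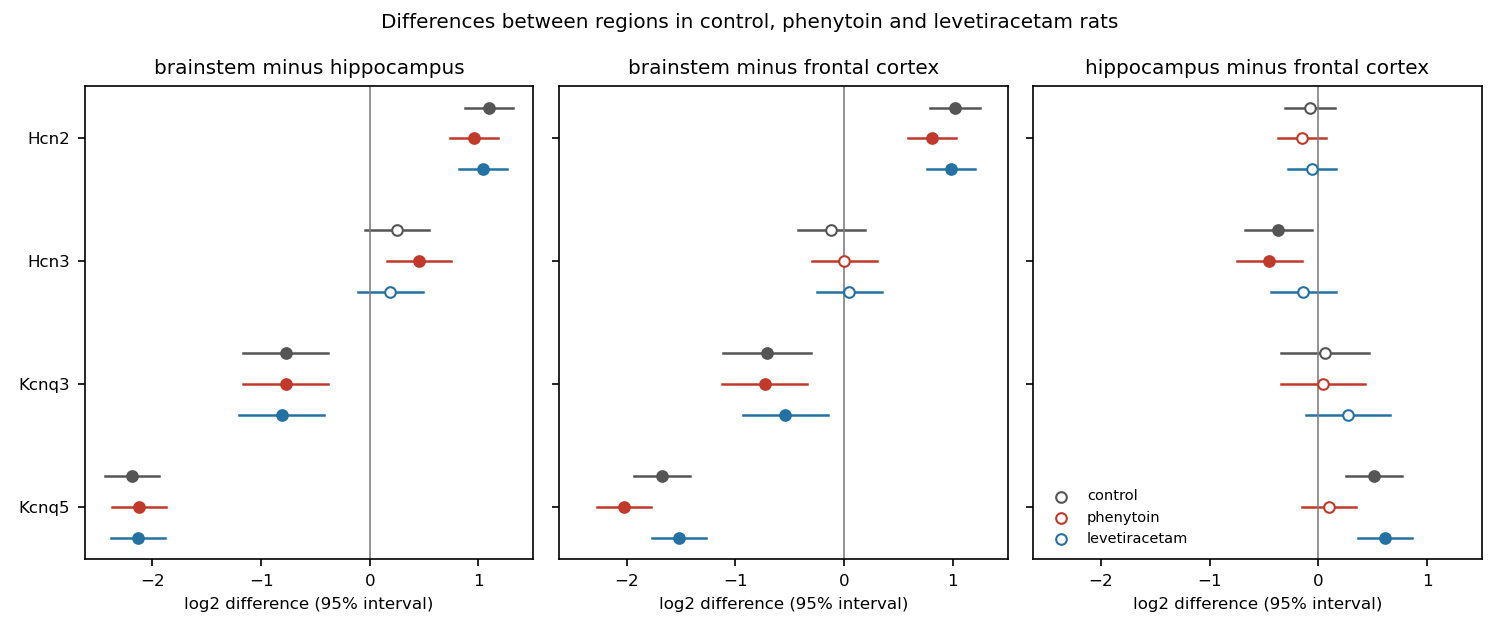
Log2 differences between regions with 95% intervals for Hcn2, Hcn3, the brighter Kcnq3 and the brightest Kcnq5 probe set in control, phenytoin and levetiracetam rats; filled points passed an adjusted p of 0.05 and open points did not. Hcn2 lies right of 0 and Kcnq3 and Kcnq5 left of 0 in both brainstem comparisons in all 3 treatments.

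The other 4 probe sets were dim. Hcn4, which encodes the main pacemaker subunit of the heart, had deposited intensities of 0.815 to 5.32 on all arrays, and its mean lay at percentile 0.364 to 0.963 of all probe sets by region. It was left out of every test by the filter on dim probe sets, and no level difference can be read from it. The second Kcnq3 probe set and the dimmest Kcnq5 probe set were also below the filter in all 3 regions. The middle Kcnq5 probe set passed it in brainstem and hippocampus only.

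The probe sets of a gene did not show the same pattern. Between control brainstem and hippocampus the brightest Kcnq5 probe set differed by -2.19, whereas the middle one differed by -0.08 (95% interval -0.57 to 0.40) and the dimmest by -0.24 (-0.61 to 0.12), neither of which was tested across all probe sets. Over 62 arrays the brightest Kcnq5 probe set correlated with the dimmest at r = 0.12 and with the middle one at r = -0.06, and these points share array and region. For Kcnq3 the dimmer probe set had the same sign, at -0.59 (-1.07 to -0.10) between control brainstem and hippocampus. The regional result for Kcnq5 rests on 1 probe set. Between the drugs in the cortex the dimmer Kcnq3 probe set differed by 0.51 (0.07 to 0.95), untested, and the brighter one by -0.17 (-0.61 to 0.26), so they had opposite signs.

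**Figure D3:**
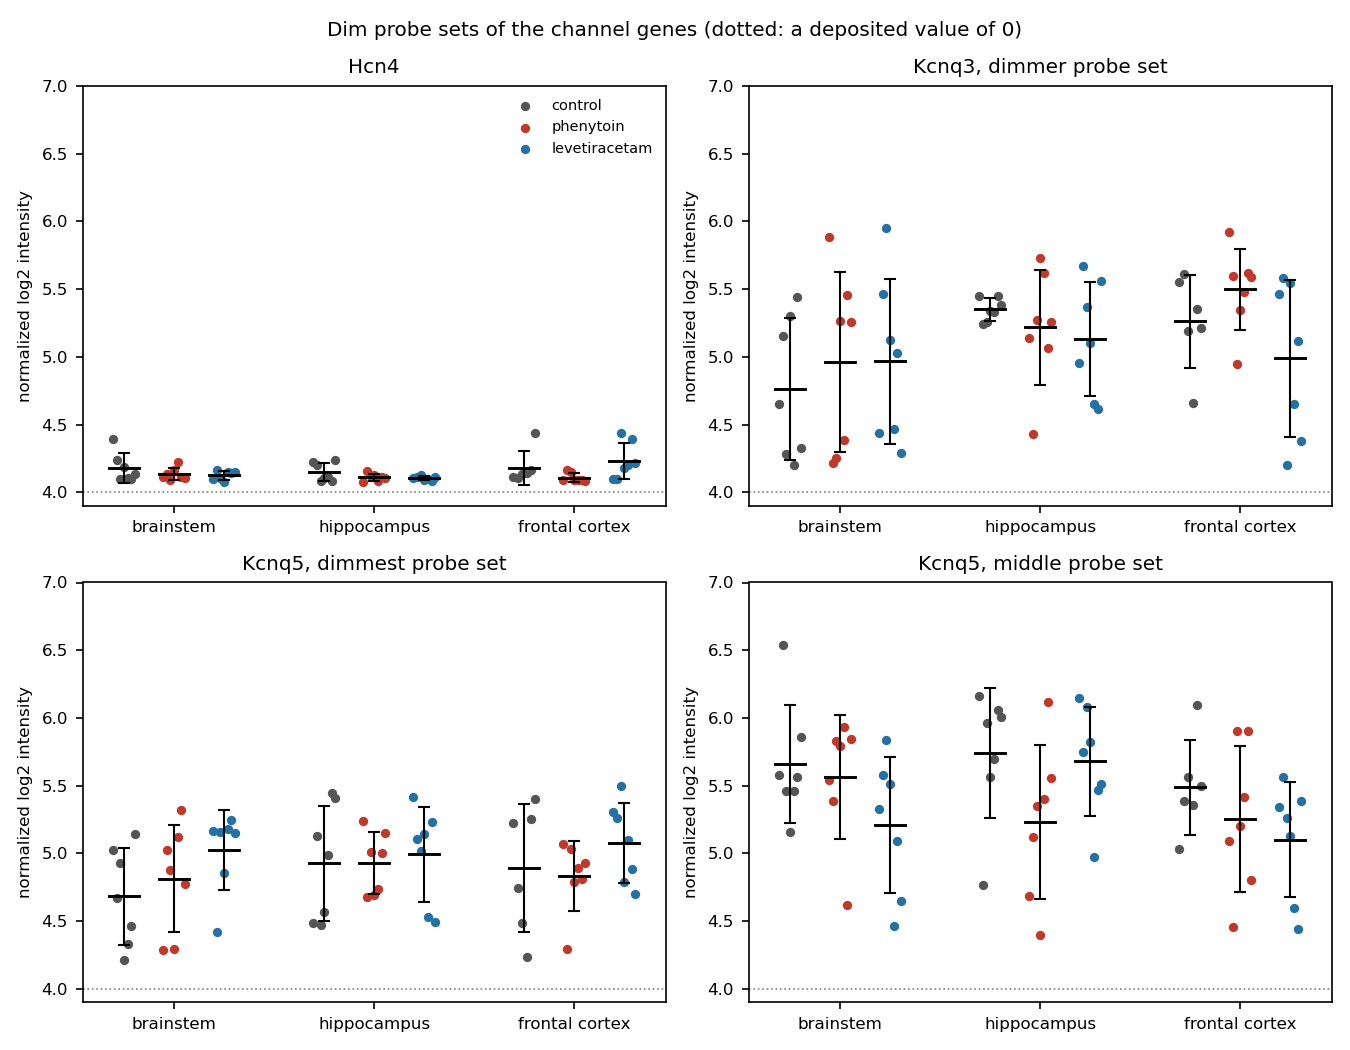
Normalized log2 intensity of Hcn4, the dimmer Kcnq3 probe set and the dimmest and middle Kcnq5 probe sets on each array, drawn as in the plot of the brighter probe sets, on a common axis; the dotted line is a deposited value of 0. Hcn4 lies between 4.07 and 4.44 on every array, and the dimmer Kcnq5 probe sets show no separation of the regions.

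Across the 9 drug comparisons, 1 of 39 tests of the members was called. The share of all probe sets called ran from 0% to 16.8% by comparison. The call was on the brightest Kcnq5 probe set in the frontal cortex, where phenytoin rats exceeded levetiracetam rats. The 7 phenytoin arrays ran from 9.48 over a median of 9.85 to 9.98, the 7 levetiracetam arrays from 8.59 over 9.20 to 9.68 and the 6 control arrays from 8.91 over 9.41 to 9.76. All 7 phenytoin arrays were above the levetiracetam median, while the ranges of the groups overlapped. The difference was 0.56 (SE 0.15, 95% interval 0.25 to 0.86, 1.47-fold, adjusted p = 0.0155). It was 1 of 4 member probe sets tested there, against 10.8% of all probe sets. The call rests on 1 probe set of the gene. The dimmest Kcnq5 probe set, untested, averaged 4.83 with phenytoin, 5.08 with levetiracetam and 4.89 in controls. The middle one, also untested there, averaged 5.25, 5.10 and 5.49 in the same order.

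On the brightest probe set the Kcnq5 difference between phenytoin and control in the cortex was 0.46 (SE 0.15, 1.37-fold). It did not pass the threshold (limma adjusted p = 0.0786), with 0 of 4 members called against 6.39% of all probe sets. All 7 phenytoin arrays were above the control median. It passed in 3 of 10 alternative settings, without levetiracetam cortex array 3 (adjusted p = 0.0286) and without control cortex array 3 (adjusted p = 0.0395). Levetiracetam differed from control by -0.10 (95% interval -0.42 to 0.22, adjusted p = 0.956).

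The beta-actin 3' to 5' log2 ratio, a measure of RNA quality, was 1.57 ± 0.14 (SD, n = 7) on the phenytoin cortex arrays, 1.32 ± 0.15 (n = 6) on the controls and 1.26 ± 0.19 (n = 7) on the levetiracetam arrays. With that ratio as a covariate the phenytoin against levetiracetam difference was 0.65 (adjusted p = 0.038). The mean of 10 neuronal markers was 10.67 ± 0.06 (SD) in the phenytoin cortex, 10.62 ± 0.12 in the control cortex and 10.56 ± 0.27 in the levetiracetam cortex. By array it ran from 10.57 to 10.75, from 10.43 to 10.74 and from 10.12 to 10.89. Its part in the Kcnq5 difference was not tested.

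In the other regions no Kcnq5 difference between treatments was called. On the brightest probe set the drug differences from control in the brainstem were 0.10 for phenytoin (95% interval -0.10 to 0.31) and 0.05 for levetiracetam (-0.15 to 0.26). In the hippocampus they were 0.04 (-0.19 to 0.26) and -0.01 (-0.23 to 0.22). Whether the phenytoin effect on Kcnq5 differed between regions was tested directly, and it did not pass (limma F test, F = 3.16, adjusted p = 0.191), with 0 of 4 members called for phenytoin against 12.2% of all probe sets and 0 of 4 for levetiracetam against 0.0644%. The middle Kcnq5 probe set differed between phenytoin and control hippocampus by -0.51 in the limma fit (SE 0.24, adjusted p = 0.173), which did not pass. In the brainstem this probe set averaged 5.21 with levetiracetam and 5.66 in controls, which was not called either. Of the probe sets tested there, 97.1% had a smaller difference between levetiracetam and control.

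Hcn2 did not pass in any of the 6 comparisons of a drug with control. The differences ran from -0.05 to 0.19, with 95% intervals reaching from -0.28 to 0.43 and a smallest adjusted p of 0.374. Hcn3, tested in brainstem and cortex only, gave differences of -0.10 to 0.12 over the 3 regions, with intervals reaching from -0.42 to 0.45. For Kcnq3 the drug differences from control ran from -0.16 to 0.24, and the intervals from -0.59 to 0.58. Its largest difference between the drugs was in the hippocampus, where phenytoin minus levetiracetam was -0.40 (SE 0.16, 95% interval -0.74 to -0.06, adjusted p = 0.091). All 7 phenytoin arrays lay below the levetiracetam median of 6.71, and the ranges, 5.92 to 6.67 and 6.30 to 7.19, overlapped.

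No member passed in the brainstem or hippocampus in any drug comparison. The share of all probe sets called there was 0.0161% and 9.24% for phenytoin and levetiracetam against control in the brainstem, and 9.24% and 0% in the hippocampus. Between the drugs it was 2.98% and 16.8%. No member passed for levetiracetam against control in the cortex either, where 0% of all probe sets were called by limma and 749 had an unadjusted p under 0.05. In the hippocampus the levetiracetam comparison likewise called 0 of all probe sets, with 1680 at an unadjusted p under 0.05.

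**Figure D4:**
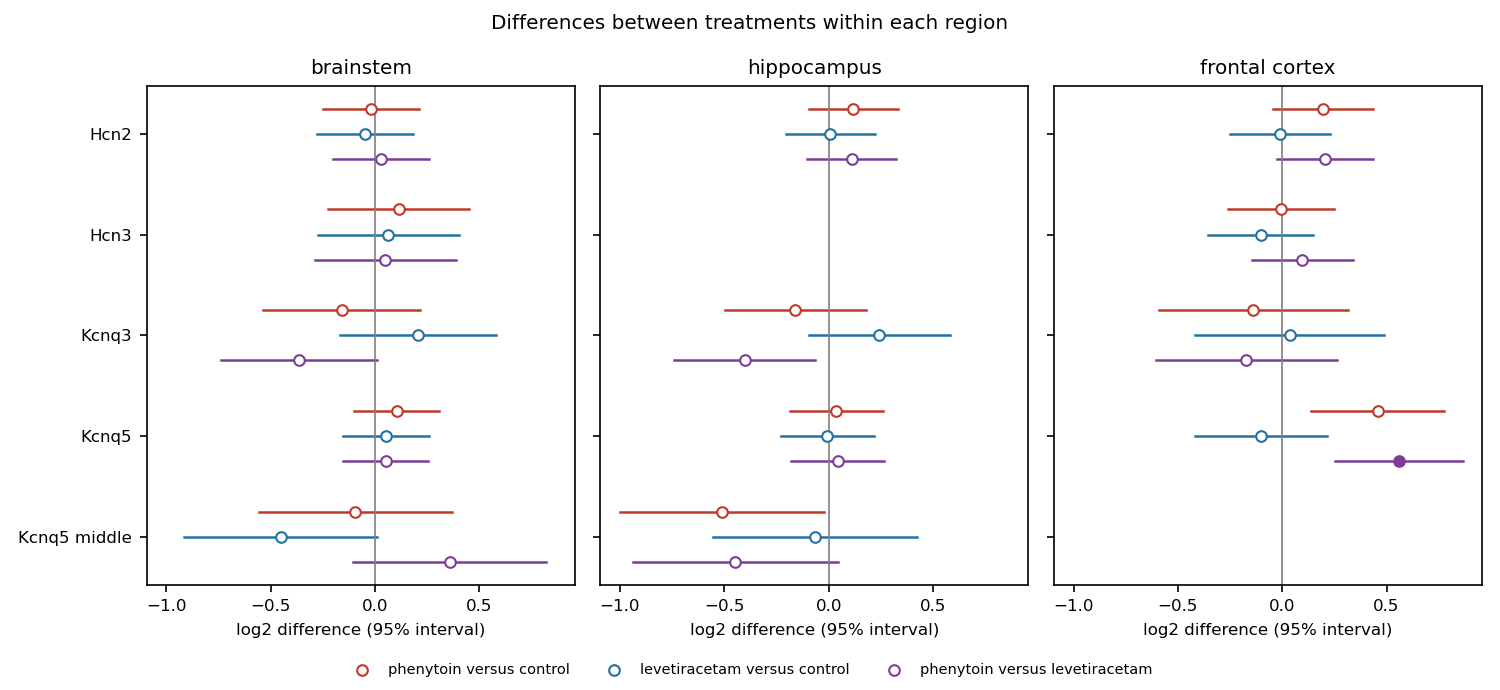
Log2 differences between treatments within each region with 95% intervals for the member probe sets tested in that region (Kcnq3 is the brighter probe set, Kcnq5 the brightest and Kcnq5 middle the second); filled points passed an adjusted p of 0.05. The filled point is Kcnq5 in the cortex between phenytoin and levetiracetam, at 0.56, and the other intervals include 0 except for Kcnq5 between phenytoin and control in the cortex, Kcnq3 between the drugs in the hippocampus and the middle Kcnq5 probe set between phenytoin and control in the hippocampus.

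Proteins that bind or regulate these channels were followed in 5 lists of genes, each gene by its brightest tested probe set. In the control brainstem against hippocampus comparison 56.4% of all probe sets were called, and the counts of the lists are to be read against that share. The shares of all probe sets, here and in the drug comparisons, also cover dimmer probe sets of a gene and those without a symbol. Among 9 tested HCN partners, 5 were higher and 3 lower in the control brainstem than in the hippocampus, with a list median of 0.56 against 0.07 over all genes. Pex5l, an accessory subunit that controls HCN trafficking, was higher in the brainstem than in the hippocampus by 0.95 and than in the cortex by 0.50. Nedd4l, a ubiquitin ligase that stands in the HCN and the KCNQ list, was lower there by -1.48 and -1.68. Among 11 tested KCNQ partners, 0 were higher and 4 lower in the brainstem than in the hippocampus, a share below that of all probe sets, with a median of -0.13. Akap5, an anchoring protein for kinases at KCNQ channels, was lower by -1.89, and Ppp3ca, a calcineurin catalytic subunit, by -1.27.

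In the muscarinic and phosphoinositide list, 1 of 14 tested genes was higher and 9 were lower in the control brainstem than in the hippocampus, with a median of -0.45. Of all probe sets, 56.4% were called in this comparison. This count and the cyclic AMP count below are to be read against that share. Itpr1, the inositol trisphosphate receptor, was lower by -2.84, Prkcb by -1.24 and Pip5k1c, which makes phosphoinositides, by -1.14. Plcb4, a phospholipase, was higher by 2.48. Of 13 genes that make or break down cyclic AMP, 2 were higher and 8 lower, with a median of -0.24, among them the phosphodiesterases Pde2a (-2.44) and Pde1a (-2.23). Adcy8, an adenylyl cyclase, was higher by 1.18. All of these named genes passed the limma test. In the list of other channel subunits, 1 of 9 genes was tested, Kcne4, an accessory subunit, which was higher by 0.65 (adjusted p = 0.000275).

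The same lists were followed in the drug comparisons. For phenytoin against control in the hippocampus, where 9.24% of all probe sets were called, the counts were 1 of 9 HCN partners, 1 of 11 KCNQ partners, 3 of 15 muscarinic and phosphoinositide genes and 1 of 13 cyclic AMP genes. Chrm3, a muscarinic receptor, fell by 0.58 (adjusted p = 0.036) and Pi4kb, a phosphoinositide kinase, by 0.20 (adjusted p = 0.0461). Ptprd, a receptor phosphatase, rose by 0.39 (adjusted p = 0.029), Sptbn4, an axonal spectrin, by 0.29 (adjusted p = 0.0224), Pip5k1c by 0.25 (adjusted p = 0.0222) and Pde2a by 0.24 (adjusted p = 0.0156). In this group the striatal markers averaged 7.02 (6.29 to 9.96 by array) against 6.46 in controls, and the oligodendrocyte markers 10.47 against 10.19. Array 7 of the group had a weight of 0.152, and the part of these in the differences was not tested.

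Between phenytoin and levetiracetam in the hippocampus, where 16.8% of all probe sets were called, the counts were 1 of 9, 2 of 11, 3 of 15 and 2 of 13 in the same order of lists. Chrm3 (-0.84, adjusted p = 0.00218) and Pip5k1a (-1.14, adjusted p = 0.003) were lower with phenytoin. Pde1b was higher by 0.79 (adjusted p = 0.0115), Ptprd by 0.39 (adjusted p = 0.0177), Sptbn4 by 0.36 (adjusted p = 0.00324), Pip5k1c by 0.32 (adjusted p = 0.00264), Pde2a by 0.32 (adjusted p = 0.00119) and Usp36 by 0.30 (adjusted p = 0.0136). The phenytoin arrays are those with the marker values just given.

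For levetiracetam against control in the brainstem, where 9.24% of all probe sets were called, the counts were 2 of 9, 1 of 10, 1 of 14 and 1 of 11. Chrm3 rose by 0.43 (adjusted p = 0.00405), Slc5a3, an inositol transporter that binds KCNQ channels, by 0.36 (adjusted p = 0.0437) and Vapb by 0.25 (adjusted p = 0.00975). Ptprd fell by 0.33 (adjusted p = 0.0211) and Pde1b by 0.30 (adjusted p = 0.0492). Between the drugs in the cortex, where 10.8% of all probe sets were called, the counts were 1 of 9, 2 of 11, 0 of 15 and 1 of 13. Calm2 was higher with phenytoin by 0.35 (adjusted p = 0.006), Adcy2 by 0.36 (adjusted p = 0.0237) and Ppp3ca by 0.32 (adjusted p = 0.0327), and Pex5l differed by -0.41 (adjusted p = 0.034). No gene of the 5 lists passed in the other 5 drug comparisons.

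The genes most like each member over the 62 arrays were ranked by Pearson r among 10404 genes, as a description, since arrays of a region share its cell makeup. Kcnq5 was nearest to Chn1 (r = 0.98), Dlgap1 (0.97) and Kcnma1 (0.97). Hcn2 was nearest to Akap12 (0.92), Ipo8 (0.92) and Chodl (0.91). Kcnq3 was nearest to Pclo (0.77), Akap5 (0.76) and Syt1 (0.75), and Hcn3, at lower r, to Nradd (0.54), Ppp1r3f (0.52) and Rbm11 (0.50). After the group means were taken out, the 3 nearest genes of Kcnq5 had r of 0.52, 0.58 and 0.53, and those of Hcn2 0.27, 0.33 and 0.18. Hcn2 and Kcnq5 ran opposite over all arrays (r = -0.85) and had r = 0.11 within groups, while Kcnq3 and Kcnq5 had r = 0.69 over all arrays and 0.34 within groups.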

How the data were processed

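Total RNA from 62 samples was measured on 62 single-colour oligonucleotide arrays, and each value is 1 intensity per probe set. The authors deposited linear intensities, scaled so that the mean after trimming 2% from each end is 150 to 150.1, as the values show; the summarization tool is not given in the sources used here. One array, phenytoin hippocampus 4, lacks 4799 of 31099 values, none of a member. Values were set to at least 0, transformed as log2(value + 16) and quantile normalized on the 26300 complete probe sets. The 57 control probe sets and the dimmest 40% were left out. Each region was fitted in limma 3.58.1 (R 4.3.3, lmFit and eBayes with trend) on its 3 treatments, and regions and interactions in a fit of all 9 groups, adjusting by Benjamini-Hochberg and calling below 0.05. The fits were tested on simulated data with independent noise. That setting held no shared rats, dissection differences or RNA quality differences, and so does not bear on those. The labels do not tie each array to one rat, so the p-values reflect the variation among samples, which may be technical. The number of arrays limits the precision. The labels of levetiracetam brainstem arrays 1 and 2 name both drugs; they were kept as titled.

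Members and gene lists were chosen with earlier results of these data known. Named genes are every member probe set, up to 4 called genes per list and comparison by smallest p, and the 3 genes most correlated with each member.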

Additional observations from a re-analysis of the deposited data

Results flagged for a closer look

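Member probe sets were checked for arrays that stand apart within a group of 6 or 7, by the gap to the nearest array over the range of the group (Dixon's criterion), in 72 probe set and group combinations; 8 were marked, and chance marks about 1 in 20. Hcn2 on phenytoin brainstem array 5 was 7.85, with the next array at 8.28. Kcnq5, on its brightest probe set, was 8.21 on levetiracetam brainstem array 7, with the next at 7.78. Hcn3 was 4.64 on control hippocampus array 7 and 5.39 on phenytoin cortex array 1, with the next at 5.36 and 5.72. The other 4 lie on dim probe sets. Hcn4 was 4.44 on control cortex array 7. The dimmest Kcnq5 probe set was 4.29 on phenytoin cortex array 2, and the middle one was 4.62 on phenytoin brainstem array 6 and 4.77 on control hippocampus array 2.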

How the results depend on the processing

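Counts of members called stayed within 1.5 times the reported count in 240 cases and moved further in 15. The 240 include counts of 0 that stayed 0. They also include falls from 3 to 2, as where the levetiracetam brainstem against cortex call for Kcnq3 was lost. For phenytoin against control in the cortex the count rose from 0 to 1 (Kcnq5) with array weights, with all 9 groups in 1 fit, at a threshold of 0.1 and without the 4 arrays of lowest weight, an alternative chosen after seeing the data; it was 0 to 1 over the arrays left out in turn. Between the drugs in the hippocampus it rose from 0 to 1 at 0.1. The control hippocampus against cortex count fell from 2 to 1 with values as deposited, no filter, the dimmest 60% left out or the Gapdh ratio as a covariate, and was 1 to 2 over arrays left out. In phenytoin rats brainstem against hippocampus fell to 2 with the dimmest 60% left out, and hippocampus against cortex fell to 0 under that filter and with the Gapdh ratio. With the dimmest 60% left out, Hcn3 and the brighter Kcnq3 probe set were no longer tested in the comparisons of regions. The falls under that filter, in control and phenytoin rats, therefore reflect probe sets not tested. In levetiracetam rats hippocampus against cortex was 1 to 2 over arrays left out. Kcnq3 in levetiracetam rats turned from 0.27 to -0.0099 between hippocampus and cortex with array weights (adjusted p = 0.972). The brightest Kcnq5 probe set passed between the drugs in the cortex under all 10 alternatives (0.43 to 0.65) and all 20 single-array omissions. Same-numbered arrays of the 3 regions within a treatment correlated at a median of 0.10 to 0.14, against -0.02 to -0.03 for other numbers, a hint that they may share rats. Of these pairs 10 of 19, 13 of 21 and 13 of 21 were over 0.1, not every one, so the numbers were not taken as pairing. The replicate block left the 1 call between the drugs in place (0.56, limma adjusted p = 0.0288) and moved no count by over 1.5 times. In the drug comparisons that block was the array number within a region, shared between treatments. It therefore does not bear on rats shared between regions. Same-numbered cortex arrays of different treatments correlated at a median of -0.17 (-0.49 to 0.54). Only the fit of all 9 groups blocked on treatment and number.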
